A study of Mus musculus with 18 samples.

Results

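The response to p53 restoration was measured in 3 mouse small cell lung cancer (SCLC) cell lines that had been selected for sgPpia#4.1, a guide RNA cutting exon 4 of Ppia. Genes were kept where TPM (a level corrected for transcript length and library size) was at least 1 in 3 or more of the 6 samples, which left 11855 of the 25239 genes in the deposited table. These genes held at least 99.79% of the summed TPM of every sample. Just inside the filter were 401 genes that reached 1 TPM in exactly 3 samples, and just outside it were 492 genes that reached it in exactly 2.

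p53 is a transcription factor that binds DNA as a tetramer and is kept at a low level by the ubiquitin ligase Mdm2, itself a product of a p53 target gene. Its induced targets include the cyclin-dependent kinase inhibitor Cdkn1a (p21), which stops the cell cycle, and proteins of the Bcl-2 and death receptor families, which can kill the cell. Cell cycle genes usually fall after p53 activation through p21 and complexes that contain proteins of the RB family. SCLC almost always lacks functional p53 and RB. Ppia encodes cyclophilin A (CypA), an abundant enzyme that isomerizes peptide bonds before proline and is the main intracellular target of cyclosporin A.

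The lines 4711-1, 4711-18 and 4716-11 are Type D lines from tumors of RPTR R2 mice, in which Rb1 and Rbl2 had been deleted by Cre and both Trp53 alleles were silenced by an invertible gene trap carrying EGFP. A Rosa26 FlpO-ER allele lets 4-hydroxytamoxifen (4-OHT) remove the trap. Control cells received ethanol vehicle and Restored cells 500 nM 4-OHT for 72 h, with 1 sample per line and condition, so that n = 3 lines in each group. The same lines carrying sgBgal, a guide against bacterial β-galactosidase, or sgPpia#3.2, which cuts exon 3 of Ppia, served for comparison (12 samples). All 18 samples shared the RB family deletions and the Trp53 alleles. No sample had 4-OHT without a restorable allele, so an effect of the drug itself and an effect of p53 cannot be told apart. The cells had been selected for the guide, and TPM does not show how many Ppia alleles were cut.

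Values below are given for 4711-1, 4711-18 and 4716-11 in that order. Absolute depth is unknown because TPM hold no read total, but steps between low values put the relative depth of the 6 samples between 1.07 and 1.73 times that of the shallowest of the 18. Trp53, the gene that 4-OHT switches on, was at 5.81, 8.27 and 7.24 TPM in the Control samples and 200.0, 219 and 217 TPM in the Restored samples. Every Restored sample therefore lay far above every Control sample, as the labels state. Ppia was at 1713, 1684 and 1952 TPM in the Control samples and 1678, 1191 and 1765 TPM in the Restored samples, and its log2 fold change of -0.22 (standard error [SE] 0.15, limma adjusted p = 0.25) did not pass the test. Near-identical Ppia pseudogenes can share its reads. Of the neuroendocrine markers of SCLC, Chga and Calca were below 0.1 TPM in all 6 samples, Syp was between 3.5 and 7.12 TPM and Uchl1 between 1.21 and 2.62 TPM. Ncam1 was the highest of the list, at 21.6, 6.9 and 13.5 TPM before and 29.7, 8.22 and 13.9 TPM after restoration, and the 10 markers summed to between 15.7 and 37.5 TPM per sample. Krt8, an epithelial keratin, was at 6360.1, 6821 and 5438 TPM before and 5826, 3187 and 2149 TPM after restoration (log2 fold change -0.85, limma adjusted p = 0.00424). It stayed under the fold threshold of 1 that is used below, and passed it after rescaling (-1.03, adjusted p = 0.003) and without 4711-1 (-1.22, adjusted p = 0.0021). Krt18 and Cdh1, the other epithelial markers tested, had log2 fold changes of -0.61 and -0.47 (adjusted p = 0.0103 and 0.0176). Yap1, a transcriptional coactivator of non-neuroendocrine SCLC, was at 116, 75.1 and 67.0 TPM before and 114, 106 and 79.8 TPM after restoration. Of markers of other cell types, 5 of fibroblasts summed to between 0.388 and 1.04 TPM per sample and 3 of endothelium to between 0.191 and 1.44 TPM. Col1a1 reached 0.698 TPM and Pecam1 1.26 TPM, while Dcn and Lum were at 0 and Cdh5 reached 0.0672 TPM. The 5 leukocyte markers summed to between 2.8 and 4.24 TPM before and 22.2 and 34.1 TPM after restoration, nearly all of it from Cd68, while Ptprc, Cd3e and Adgre1 were below 0.15 TPM. The part of other cells in the results was not tested.

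Restoration changed 1140 genes, where a call needed a limma adjusted p below 0.05 together with a log2 fold change of 1 or more in size, which is 9.62% of the genes tested. Of these, 778 genes rose (6.56% of those tested) and 362 fell (3.05%). The median log2 fold change was 1.42 among the genes that rose and -1.55 among those that fell, and 39 and 14 of them moved by at least 3. The direction was the same in 3 of 3 lines for 771 and 361 of them, and the Control and Restored TPM did not overlap for 639 and 290, against 18.3% and 8.6% of all genes tested whose Restored samples lay wholly above or below. The genes that rose took up 3.05%, 2.26% and 2.45% of all TPM before restoration and 7.62%, 9.08% and 8.79% after it. The median over all genes was itself at 0.15 on the log2 scale. After rescaling by median-of-ratios factors, which brought it close to 0, 584 genes rose and 503 fell, so that the share of rises among the calls was 53.7% against 68.2%. All 584 of these rises and all 362 of the falls above were called under both scalings. Without the cell line term in the fit, 554 genes rose and 228 fell, and of the genes named below Areg, Ereg, Csf2, Lif, Gdf15, Cflar, Ccne1, Mgmt, Cxcl2, Cxcl5, Bmf, Gls2, Mcm10, S100a4 and Tlr2 were not called. 87 genes passed the filter on the Restored samples alone and 24 on the Control samples alone, and these had to differ. 61 of the former are among the rises and 13 of the latter among the falls.

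**Figure D1:**
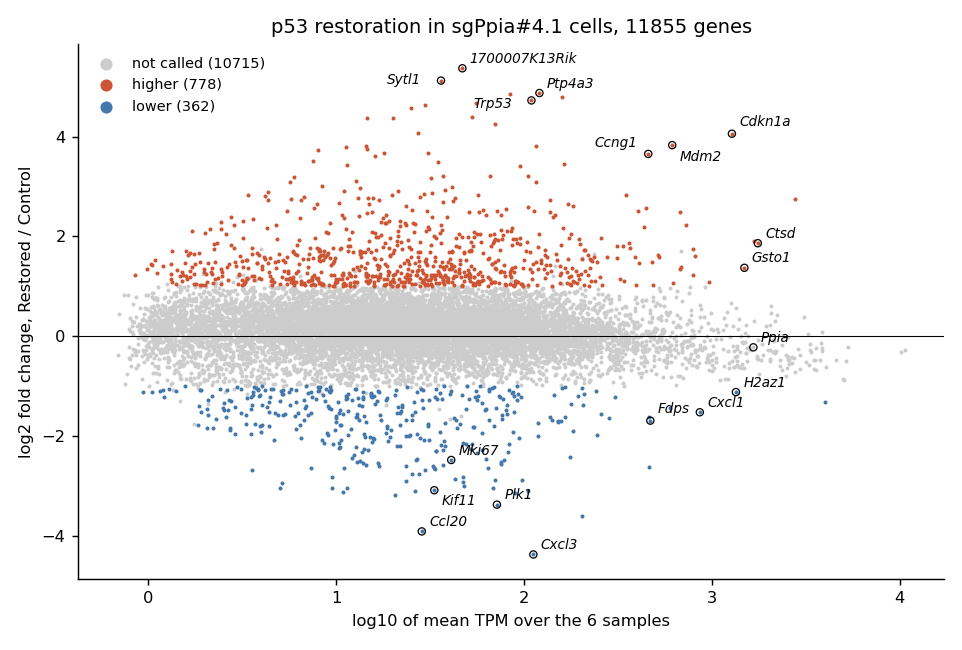
Each point is 1 of 11855 genes in sgPpia#4.1 cells, with the log10 of its mean TPM over the 6 samples on the x axis and the limma log2 fold change (Restored over Control) on the y axis. Red and blue points are the 778 and 362 genes that passed the test, and circled genes are named in the text: Cdkn1a, Mdm2 and Ccng1 lie at a log2 fold change of 4.06, 3.83 and 3.65, Cxcl3 at -4.38 and Ppia near 0.

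Genes that restrain p53 itself responded: 4 of 8 negative regulators rose and none fell, with a median log2 fold change of 1.05 against 0.15 over all genes. Mdm2 was at 76.2, 92.3 and 65.2 TPM in the Control samples and 868, 1613 and 978 TPM in the Restored samples, a rise of 3.83 on the log2 scale (SE 0.17, limma adjusted p = 4.68e-09). Ccng1 (cyclin G1), which recruits a phosphatase to Mdm2, went from 61.4, 80.2 and 59.5 TPM to 760.3, 904 and 888 TPM, and its log2 fold change was 3.65. In both genes every Restored value lay far above the Control values. Mdm4, an Mdm2 relative that inhibits p53, and the phosphatase Ppm1d rose less, by 1.62 and 1.27. The other 4 members, the ubiquitin ligases Rchy1, Cop1 and Trim24 and the deacetylase Sirt1, had log2 fold changes between -0.10 and 0.83 and were not called.

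Of 18 arrest and antiproliferative p53 targets, 9 rose and none fell, and the median log2 fold change was 1.58. Cdkn1a was at 129, 171 and 117 TPM in the Control samples and 1565, 3386 and 2306 TPM in the Restored samples, a mean ratio of 17.4 and a log2 fold change of 4.06 (SE 0.25, limma adjusted p = 1.18e-07). It was among the most abundant transcripts that rose. The phosphatase Ptp4a3 was at 12.0, 8.02 and 3.38 TPM in the Control samples and 230.4, 224 and 248 TPM in the Restored samples (log2 fold change 4.88), so that its Restored values were nearly equal although the Control values differed. Zmat3, an RNA-binding protein, rose by 2.88 (SE 0.10), Trp53inp1, which promotes autophagy and arrest, by 3.22, the polo-like kinase Plk2 by 2.57, and Sesn2, a leucine sensor that restrains mTORC1, by 2.52. Plk2 no longer passed without 4711-18 (2.26, adjusted p = 0.069) or without 4716-11 (2.69, adjusted p = 0.11), nor did Sesn2 without 4716-11 (2.14, adjusted p = 0.053). Gadd45a and Sesn1, which are textbook p53 targets, did not pass the test. Gadd45a was at 53.1, 73.8 and 61.8 TPM in the Control samples and 14.9, 115 and 100.1 TPM in the Restored samples. It was higher after restoration in 4711-18 and 4716-11 and lower in 4711-1, and its log2 fold change over the lines was -0.15 (95% interval -1.18 to 0.89), against 0.66 without 4711-1. Sesn1 had a log2 fold change of -0.17 (95% interval -0.55 to 0.21). Btg2, which slows proliferation, was at 65.4, 116 and 94.3 TPM in the Control samples and 109, 444 and 398 TPM in the Restored samples and missed the test (log2 fold change 1.57, limma adjusted p = 0.068), with the smallest difference in 4711-1. It passed without that line (2.0, adjusted p = 0.018), and also with all 3 lines where only the 6 samples were fitted (1.57, adjusted p = 0.018).

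**Figure D2:**
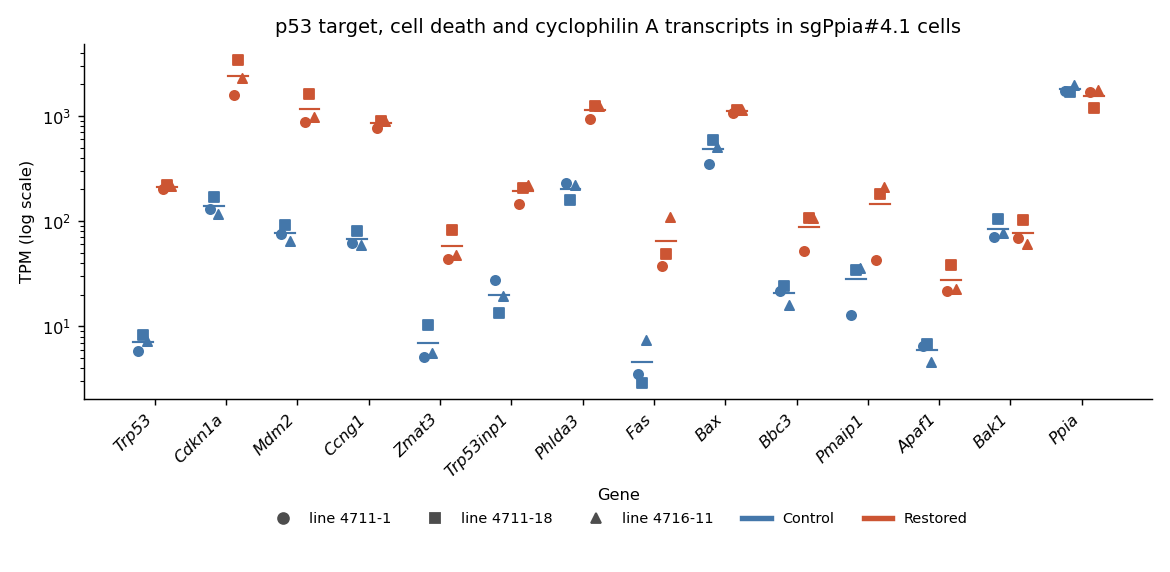
TPM on a log axis for 14 genes in the 6 sgPpia#4.1 samples, where blue and red are Control and Restored, the symbol gives the line and the short bar the mean of 3 lines. Restored values of Trp53, the gene that 4-OHT switches on, lie above the Control values. Those of the p53 targets from Cdkn1a to Apaf1 do so too, whereas Bak1 and Ppia overlap between the groups.

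The DNA element that p53 binds consists of a pair of decamers, each with 3 purines, a core of C, 2 A or T bases and G, and 3 pyrimidines. This 20-base full site, with no spacer, both cores intact and at most 2 mismatches elsewhere, was searched for in RefSeq promoter windows (GRCm38.p6, 250 bases before to 50 after a start site); the element reads the same on both strands, so that 1 scan covers both. It was found in 0.158% of all windows. Among the genes tested, 9370 matched a window by symbol, and 16 of them (0.171%) held a site: 5 of 606 that rose (0.825%), 1 of 277 that fell (0.361%) and 10 of 8487 that were not called (0.118%). With at most 1 mismatch the counts were 3, 0 and 0, and with at most 3 they were 11, 3 and 53. The 6 sites in genes that passed the test are shown because they place a p53-type element beside a measured change, with the cores in capitals, 5′ to 3′ on the strand of the gene.
Cdkn1a: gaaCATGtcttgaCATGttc
Ms4a10: gatCTAGtccagaCATGcat
Zfp365: agaCTAGgctgggCAAGact
Gtse1: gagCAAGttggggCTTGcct
Rps27l: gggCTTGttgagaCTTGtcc
Kif23: gaaCATGcccgacCAAGgct
The Cdkn1a site is at chr17:29090928-29090947 on the plus strand and begins 51 bases before a start site. Those of Ms4a10 (chr19:10974781-10974800, minus strand), Zfp365 (chr10:67912706-67912725, minus) and Rps27l (chr9:66946296-66946315, plus) begin 100, 63 and 117 bases before one, and that of Kif23 (chr9:61947026-61947045, minus) 246 bases before one. The Gtse1 site (chr15:85859945-85859964, plus) begins 1 base before the start site and reaches into the transcript. Ms4a10, a membrane-spanning 4A family member, was at 0.0593, 0.479 and 0.754 TPM before and 9.45, 32.6 and 106 TPM after restoration (log2 fold change 4.58), having passed the filter on the Restored samples alone. Zfp365, a zinc finger protein of genome maintenance, was at 8.53, 8.44 and 8.22 TPM before and 60.1, 81.5 and 80.8 TPM after restoration (2.98), and Rps27l, a p53-induced relative of a ribosomal protein, at 160.3, 259.9 and 235 TPM before and 506, 569 and 732 TPM after restoration (1.47). Gtse1, a microtubule-associated protein of G2 and S phase, was at 34.9, 63.9 and 49.2 TPM before and 183, 407 and 359 TPM after restoration (2.62). It rose in all lines while Kif23, the mitotic kinesin with the site, fell from 71.2, 103 and 83.7 to 12.1, 16.1 and 30.1 TPM (-2.17). A match of letters says nothing on whether p53 occupied these places. The study measured p53 binding by ChIP-seq in these lines, without the guides, and reported high signal at Cdkn1a. Those data were not used here.

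Among 20 proapoptotic genes, 11 rose and 1 fell (median log2 fold change 1.15). Fas, a death receptor, was at 3.53, 2.89 and 7.41 TPM in the Control samples and 37.9, 48.9 and 109.6 TPM in the Restored samples (log2 fold change 3.50, SE 0.30, limma adjusted p = 2.55e-06). Pidd1, the scaffold of a caspase-2 complex, rose by 3.22, Perp, a desmosome protein, by 2.51, and Tnfrsf10b, the TRAIL receptor, by 2.05. Genes of the mitochondrial arm rose as well. Bbc3 (Puma) was at 21.5, 24.1 and 16.1 TPM in the Control samples and 51.6, 106 and 107 TPM in the Restored samples (1.99), Pmaip1 (Noxa) at 12.9, 34.5 and 36.2 TPM in the Control samples and 42.7, 182 and 209 TPM in the Restored samples (2.17), and Bax at 351, 592 and 509 TPM in the Control samples and 1068, 1127 and 1139 TPM in the Restored samples (1.23). For all 3 the Restored samples lay above the Control samples, and the smallest Restored values of Bbc3 and Pmaip1 were those of 4711-1. Casp8, Casp9, Bak1 and Bid, on the other hand, had log2 fold changes between -0.13 and 0.24, and none was called. Bmf, a BH3-only protein, fell from 21.4, 8.62 and 15.7 to 10.4, 1.59 and 2.39 TPM (-1.72, limma adjusted p = 0.0291), with overlapping groups. It no longer passed without 4711-18 (-1.64, adjusted p = 0.055) or without 4716-11 (-1.44, adjusted p = 0.27).

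In the lists of the opposing and of the lytic arms 1 gene each rose, 12.5% and 10% of those tested, which is not far from the 6.56% of all genes. Of 8 prosurvival genes tested, Cflar (c-FLIP, an inhibitor of caspase-8) rose by 1.08 (not called without 4711-18 at 0.78, or after rescaling at 0.92), and the other 7, including Mcl1 (0.40), Bcl2 (-0.14) and Bcl2l1 (0.97), were not called. Bcl2l1 passed without 4711-1 (1.03, adjusted p = 0.019). Of 10 genes of necroptosis, pyroptosis, parthanatos and membrane rupture, Cyld, a deubiquitinase that acts on Ripk1, rose from 21.6, 17.7 and 20.2 to 43.1, 67.9 and 72.9 TPM (1.55, limma adjusted p = 1.39e-05). Mlkl, the pore former of necroptosis, was at 64.5, 60.4 and 79.3 TPM before and 106, 140.3 and 129 TPM after restoration. Its log2 fold change of 0.87 and that of Ninj1, which ruptures the plasma membrane in dying cells (0.92), had adjusted p-values of 0.0027 and 0.000748 but stayed below the fold threshold of 1. Ripk3, the kinase that activates Mlkl, was at 1.27, 1.61 and 0.589 TPM before and 1.23, 2.26 and 0.0428 TPM after restoration, and thus close to the filter. Ppif, which encodes cyclophilin D of the mitochondrial permeability transition, was at 12.0, 30.6 and 12.5 TPM before and 12.9, 22.1 and 9.71 TPM after restoration and was not called (-0.23, 95% interval -0.53 to 0.07). Among 20 genes of ferroptosis and oxidative stress, 2 rose and 2 fell (10% each, where 6.56% and 3.05% of all genes did). Hmox1 (heme oxygenase) was at 257, 251 and 211 TPM in the Control samples and 851, 1951 and 862 TPM in the Restored samples (2.23), and Gclc, which makes the glutathione precursor, rose by 1.23. Slc40a1, the iron exporter, fell from 6.25, 4.5 and 6.57 to 1.18, 2.2 and 2.63 TPM (-1.19), and the glutaminase Gls2, described elsewhere as a p53 target, fell by 1.02 on the log2 scale. Gls2 lost its call without 4711-1 (-0.95) or 4711-18 (-0.80), Slc40a1 without 4711-1 (-0.92), and Gclc without 4711-18 (1.12, adjusted p = 0.065) or 4716-11 (0.96, adjusted p = 0.064). Gpx4, the main brake on ferroptosis, had a log2 fold change of 0.03 (95% interval -0.22 to 0.28).

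The mitosis genes fell together. All 30 mitosis genes tested fell, with a median log2 fold change of -2.52 and a range of -3.38 to -1.63, and in none did the groups overlap. Plk1, the mitotic kinase, was at 104, 157 and 128 TPM in the Control samples and 8.28, 6.5 and 26.4 TPM in the Restored samples (-3.38, SE 0.50, limma adjusted p = 0.000227). Ccnb1 (cyclin B1) was at 126, 232 and 157 TPM in the Control samples and 12.5, 18.7 and 42.4 TPM in the Restored samples (-2.88), and Mki67, the Ki-67 antigen, at 70.6, 63.8 and 71.8 TPM in the Control samples and 10.6, 5.65 and 23.9 TPM in the Restored samples (-2.48). Foxm1, which drives these genes, fell by 2.08. In each of these genes 4716-11 kept the highest Restored value. The same held for 29 of the 30, and the median log2 difference was -2.57 in 4711-1, -3.19 in 4711-18 and -1.58 in 4716-11.

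Of 36 DNA replication genes, 1 rose and 1 fell (2.78% each, where 6.56% and 3.05% of all genes did). The median log2 fold change was 0.03, close to the 0.15 of all genes. Mcm2, a subunit of the replicative helicase, was at 222, 225 and 226 TPM in the Control samples and 309, 238 and 304 TPM in the Restored samples (0.32, limma adjusted p = 0.0542). Cdc6, which loads the helicase, had a log2 fold change of 0.03 (95% interval -0.78 to 0.85), and E2f1, the activator of these genes, one of 0.80. Ccne1 (cyclin E1), which promotes S phase entry, was the member that rose, from 15.2, 34.6 and 37.4 to 50.5, 48.1 and 119 TPM (1.26), and Mcm10 the one that fell (-1.12). Neither call held in every fit, since Ccne1 lost it without 4711-1 (1.05, adjusted p = 0.074) or 4716-11 (1.06, adjusted p = 0.088) and Mcm10 without any 1 of the lines (-1.07, -0.92 and -1.38). The lines differed in sign: 26 and 27 of the 36 were higher after restoration in 4711-1 and 4716-11, whereas 27 were lower in 4711-18. Rrm2, a subunit of ribonucleotide reductase, was at 455, 309 and 444 TPM before and 976, 179 and 375 TPM after restoration. Of the RB family, Rb1 was at 5.3, 6.54 and 3.94 TPM in the Control samples and 17.9, 25.4 and 14.6 TPM in the Restored samples and rose by 1.69 (limma adjusted p = 2.92e-06), although the gene carries the Cre deletion in these cells. A value per gene does not show which exons gave the reads. Rbl1 and Rbl2 were not called (0.24 and 0.42).

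**Figure D3:**
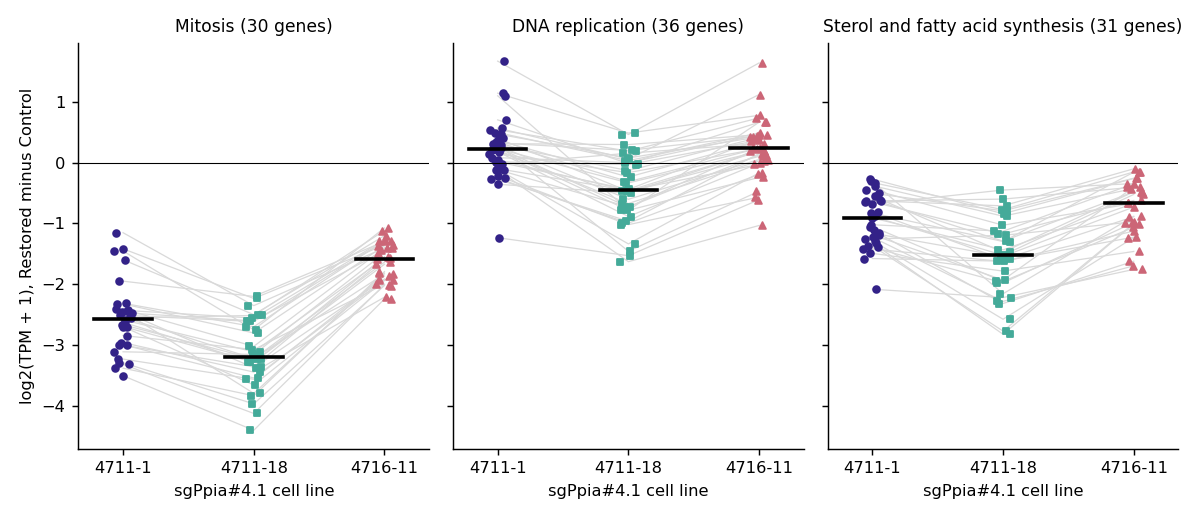
Each symbol is 1 gene in 1 sgPpia#4.1 line, with the difference in log2(TPM + 1) between its Restored and Control sample on the y axis, grey lines joining the same gene and black bars marking medians, for the mitosis, DNA replication and sterol and fatty acid synthesis lists. All mitosis genes lie below 0 in all lines (medians -2.57, -3.19 and -1.58), all 31 sterol and fatty acid genes lie below 0, and DNA replication genes straddle it.

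Sterol and fatty acid synthesis fell as a group. Of 31 genes tested, 17 fell and none rose, and all 31 were lower after restoration in each of the 3 lines (median log2 fold change -1.10). After rescaling 20 fell, and without the cell line term 10. Hmgcs1, which makes HMG-CoA, was at 201, 205 and 229 TPM in the Control samples and 93.1, 40.3 and 73.9 TPM in the Restored samples (-1.68, SE 0.24, limma adjusted p = 0.000155). Fdps, which makes farnesyl diphosphate, was among the most abundant transcripts that fell and did so by 1.70 on the log2 scale, and Sqle, the squalene epoxidase, fell by 1.36. Elovl6, a fatty acid elongase, had the largest fall of the list, from 24.3, 37.4 and 33.6 to 4.97, 7.25 and 9.24 TPM (-2.02). The regulators Srebf1 and Srebf2 were not called (-0.46 and -0.56). The fall was deepest in 4711-18, where the median log2 difference was -1.52, against -0.91 in 4711-1 and -0.67 in 4716-11.

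Of 23 lysosome and autophagy genes, 7 rose and none fell, with a median of 0.55. Atg9b, a lipid scramblase of autophagosome formation, was at 5.02, 3.14 and 1.53 TPM in the Control samples and 146, 119.7 and 59.1 TPM in the Restored samples (4.68). Ctsd (cathepsin D) was at 894, 563 and 844 TPM in the Control samples and 2584, 2622 and 3035 TPM in the Restored samples (1.86, limma adjusted p = 3.26e-06) and was among the most abundant transcripts that rose. Tpp1 and Aga, hydrolases of the lysosome, rose by 1.72 and 1.63, and Atg7, which conjugates LC3, by 1.21. Map1lc3b, Sqstm1 and Tfeb were not called (0.08, 0.49 and 0.10). Cd68, a lysosomal glycoprotein used as a macrophage marker, rose from 3.85, 2.43 and 2.69 to 24.2, 21.3 and 33.8 TPM (2.77), while Ptprc and Adgre1 stayed at or below 0.0814 TPM in all 6 samples.

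Secreted factors changed in both directions. Of 23 tested, 12 rose and 6 fell, and without the cell line term 6 rose and 4 fell. Of the 23, 2 passed the filter on the Restored samples alone and 1 on the Control samples alone, and these had to differ. The 6 that fell are chemokines. Ccl20 was at 35.8, 85.9 and 41.3 TPM in the Control samples and 0.645, 4.84 and 3.09 TPM in the Restored samples (-3.92, SE 0.45, limma adjusted p = 2.67e-05), Ccl2 at 165, 104 and 105 TPM in the Control samples and 11.6, 15.3 and 21.5 TPM in the Restored samples (-2.88), and Cxcl1, abundant in these cells, at 1533, 787 and 1551 TPM in the Control samples and 527, 318 and 464 TPM in the Restored samples (-1.53). All Restored samples lay below all Control samples for these 3. Cxcl2, Cxcl5 and Cx3cl1 fell by 1.85, 3.61 and 1.58, and Cxcl3, not on the list, had the largest fall of all genes, from 130.5, 189 and 323 to 4.02, 19.5 and 7.75 TPM (-4.38). Cxcl1 missed the test without 4716-11 (-1.42, adjusted p = 0.065). The 12 that rose were mostly growth factors and cytokines. Gdf15, a stress cytokine, was at 91.8, 1327 and 771 TPM in the Control samples and 364, 4186 and 3297 TPM in the Restored samples (1.91), with Control 4711-18 and 4716-11 above Restored 4711-1, and it missed the test without 4716-11 (1.82, adjusted p = 0.061). The EGF receptor ligands Areg, Ereg and Tgfa rose by 1.38, 1.28 and 1.15, the cytokines Csf2 and Lif by 1.84 and 2.13, and the Wnt ligands Wnt7a and Wnt9a by 2.70 and 2.80. Without 4716-11 Csf2 (1.99, adjusted p = 0.081) and Lif (1.91, adjusted p = 0.059) were not called, and after rescaling Tgfa (0.98) was not. Il6, Il1a and Tnf were below 2 TPM and did not pass the filter.

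Of 21 interferon and antigen presentation genes, 4 rose (19%) and none fell, where 6.56% and 3.05% of all genes did. More than these 4 rose at a pseudocount of 0.1, and 2 of the 21 passed the filter on the Restored samples alone. Tap1, the peptide transporter of antigen presentation, was at 1.16, 0.642 and 2.67 TPM in the Control samples and 14.8, 31.1 and 46.5 TPM in the Restored samples (3.62, limma adjusted p = 6.15e-08), and the others were Parp10 (2.28), Pml (1.69) and Ifi35 (1.28). B2m and the MHC class I genes H2-D1 and H2-K1, whose reads can be shared with relatives, were not called (0.43, 0.29 and -0.47). Among 16 p53-linked DNA repair genes, 4 rose (25%) and 2 fell (12.5%). Ercc5, a nuclease of nucleotide excision repair, was at 9.33, 10.3 and 10.3 TPM in the Control samples and 56.0, 92.4 and 78.2 TPM in the Restored samples (2.77), and the translesion polymerases Polk and Rev1 rose by 2.52 and 1.38. Fancd2 and Fanci, a heterodimer of crosslink repair, fell by 1.56 and 1.08, the latter not without 4711-18 (-0.94). Mgmt, which reverses alkylation of guanine, was at 0.255, 11.2 and 0.322 TPM before and 1.14, 90.5 and 3.28 TPM after restoration (1.79). Its level was highest in 4711-18 and at most 3.28 TPM in the other lines, and it was not called without 4711-18 (1.23, adjusted p = 0.095) or 4716-11 (1.84, adjusted p = 0.078). Ddb2 and Xpc, which recognize ultraviolet damage, were not called (0.42 and 0.50).

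None of 16 cyclophilin genes was called, and the median log2 fold change was -0.11. Ppih and Ppic came closest, with log2 fold changes of -0.96 and -0.86 and limma adjusted p-values of 0.00418 and 0.00014. After rescaling both fell (-1.13 and -1.03), as Ppih did without 4711-1 (-1.19). Ppie, which encodes the nuclear cyclophilin E, was at 78.1, 81.4 and 93.9 TPM in the Control samples and 60.7, 62.9 and 72.8 TPM in the Restored samples (-0.36, adjusted p = 0.0207). None of 31 small subunit ribosomal protein genes was called either, though 22 of them were lower at an adjusted p under 0.05 (37.4% of all genes passed that criterion in either direction), and the median was -0.44. After rescaling 3 of the 31 fell. Reads of ribosomal protein pseudogenes may be counted with them.

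**Figure D4:**
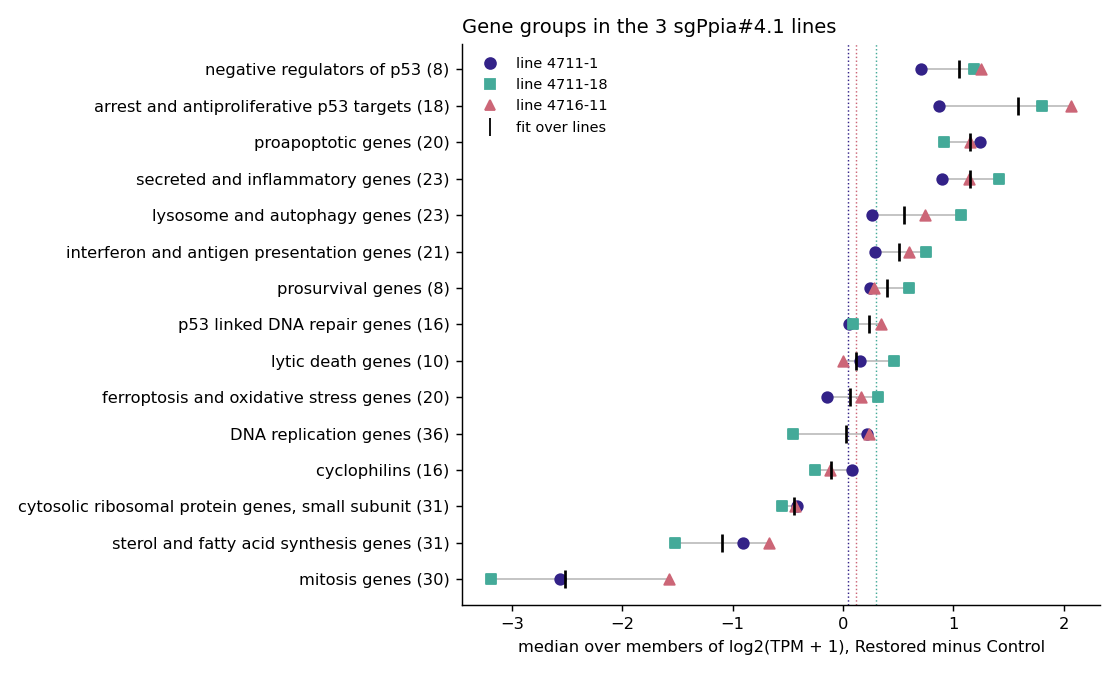
Median over the members of each gene list of the log2(TPM + 1) difference, Restored minus Control, in each sgPpia#4.1 line (symbols), with the median limma fold change as a black tick, the number of genes tested in brackets and the median of all genes per line dotted. Mitosis and sterol genes lie lowest in 4711-18, at -3.19 and -1.52, and arrest targets lie lowest in 4711-1, at 0.87.

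Beyond these groups, the largest rises with the same sign in all lines began with 1700007K13Rik, an uncharacterized gene, at 0.444, 1.61 and 0.736 TPM in the Control samples and 29.9, 153 and 97.0 TPM in the Restored samples (5.37, SE 0.27, limma adjusted p = 1.6e-08). Sytl1, which tethers secretory vesicles, was at 0.59, 0.927 and 0.961 TPM before and 29.0, 76.0 and 109.7 TPM after restoration (5.13), and Ak1, an adenylate kinase, at 10.2, 13.7 and 7.07 TPM before and 275, 381 and 272 TPM after restoration (4.80). Inka2, an inhibitor of the kinase Pak4, rose by 4.64 and Sulf2, which removes sulfate groups from heparan sulfate, by 4.39. Sytl1 was below 1 TPM in all Control samples and passed the filter on the Restored samples alone, so that its groups could not overlap. For the other 4 genes all Restored samples also lay above all Control samples. Reads of Ces2e, a carboxylesterase of a multigene family, may be shared with its relatives. It rose from 0.416, 1.27 and 2.75 to 23.1, 25.4 and 455 TPM (4.85), with 4716-11 far above the other lines. Among abundant transcripts Gsto1, a glutathione transferase, was at 913, 659 and 847 TPM before and 1869, 1495 and 3158 TPM after restoration (1.37), and Sprr1a, a protein of the cornified envelope, at 1836, 185 and 824 TPM before and 2979.6, 5139.8 and 5686 TPM after restoration (2.76). Sprr1a missed the test without 4716-11 (2.74, adjusted p = 0.12).

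The largest falls after the chemokines were mostly of the cell division machinery: Ccnb2 (-3.15), Sapcd2 (-3.12), a regulator of spindle orientation, Cdca3 (-3.10) and the spindle motor Kif11, which went from 66.9, 56.0 and 55.6 to 5.95, 2.65 and 13 TPM (-3.09). Vsig1, an adhesion protein of gastric epithelium, was at 20.5, 38.8 and 53.3 TPM before and 1.52, 1.62 and 8.34 TPM after restoration (-3.19), and Lcn2, which binds bacterial siderophores, at 74.7, 28.1 and 41.5 TPM before and 2.85, 6.09 and 4.28 TPM after restoration (-3.12), a fall that missed the test without 4716-11 (-3.17, adjusted p = 0.056). Among abundant transcripts, S100a4, a calcium-binding protein of motile cells, was at 7203, 1652 and 7023 TPM before and 4001, 352 and 3846 TPM after restoration (-1.32). Its groups overlap, with 4711-18 below the other lines in both states, and without 4711-18 its fold change was -0.86. H2az1, a histone variant, and Scd2, a stearoyl-CoA desaturase, fell by 1.12 and 1.45, and H2az1 had -0.92 without 4711-18.

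The response was described for each line as well. Over the 778 genes that rose, the median log2 difference was 1.06 in 4711-1, 1.78 in 4711-18 and 1.50 in 4716-11, and 50, 500 and 228 of them rose most in the respective line. In the same order the medians of these genes, chosen in sgPpia#4.1 cells, were 1.41, 1.67 and 1.50 with sgBgal and 1.33, 1.37 and 1.49 with sgPpia#3.2, a smaller spread over the lines than with sgPpia#4.1. The median of all genes with sgPpia#4.1 was at 0.04, 0.30 and 0.12. The genes that departed most in 1 line, given as values without a test because they were chosen for it, included Atf3 and Chac1 in 4711-1. Atf3, a stress-induced transcription factor, was at 31.4, 228 and 285 TPM before and 6.05, 555 and 681 TPM after restoration, and Chac1, which degrades glutathione, at 124, 40.4 and 21.7 TPM before and 21.0, 116 and 80.3 TPM after restoration. Both were lower after restoration in 4711-1 and higher in the other lines. With sgBgal Atf3 had the same signs, with log2 differences of -1.43, 1.30 and 0.68. With sgPpia#3.2 they were 0.05, -0.92 and 0.58, so that the signs in 4711-1 and 4711-18 were the opposite. In 4711-18, Fosb, an AP-1 subunit, was at 21.4, 13.1 and 41.8 TPM before and 14, 108 and 51.4 TPM after restoration, and in 4716-11, Tekt4, a tektin of cilia, was at 0.0389, 1.29 and 0.794 TPM before and 0.0452, 1.09 and 19.2 TPM after restoration. The other departing genes were small RNA genes and AA465934. In short genes TPM can be high from few reads, and the read counts are not known here.

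The same contrast was set beside that of the other guides, which used separate Control and Restored samples of the same lines. In the joint fit restoration changed 1337 of the 11855 genes with sgBgal (11.3%), 937 up (7.9%) and 400 down (3.37%), and 1063 with sgPpia#3.2 (8.97%), 785 up (6.62%) and 278 down (2.35%). For no gene did the response with sgPpia#4.1 differ from that with sgBgal at a limma adjusted p under 0.05 (smallest adjusted p = 1.00), and 63 genes (0.531%) had an unadjusted p under 0.05. Against sgPpia#3.2 the counts were 0 and 102 (0.86%). With 4711-1, 4711-18 or 4716-11 left out no gene passed either, and 47, 303 (2.56%) and 45 genes had an unadjusted p under 0.05 against sgBgal and 158, 448 (3.78%) and 80 against sgPpia#3.2. This does not show that the responses were equal. With no difference and a matching error, a fraction near 0.05 of genes would have an unadjusted p under 0.05. The shares above are lower, so the test was conservative. Its error includes any response of a line that the guides share. A block for each line and state, added after the data were seen, gave 93 (0.784%) against sgBgal and 173 (1.46%) against sgPpia#3.2. Again no gene passed. The intervals that follow are from the cell line fit. The 95% interval of the difference lay within 1 log2 unit of 0 for 698 of the 1140 called genes (61.2%) against sgBgal and for 631 (55.4%) against sgPpia#3.2, with a median half-width of 0.71. For the remaining genes the interval reached 1 log2 unit or more.

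By group, the mitosis genes had a median log2 fold change of -2.52 with sgPpia#4.1, -2.46 with sgBgal and -2.16 with sgPpia#3.2, and the arrest targets 1.58, 1.58 and 1.55. Sterol and fatty acid genes were at -1.10, -1.28 and -0.94, and 17, 20 and 13 of the 31 fell. Muc1, an epithelial mucin, had the smallest p against sgPpia#3.2. It fell from 22.5, 26.8 and 10.3 to 5.29, 7.45 and 3.81 TPM with sgPpia#4.1 (-1.62) and had a log2 fold change of -1.62 with sgBgal and -0.54 with sgPpia#3.2, a difference of -1.08 (SE 0.21, limma adjusted p = 1.00 over all genes). Tlr2, a receptor for bacterial lipoproteins, came next (-1.38 with sgPpia#4.1, -0.71 with sgBgal and -0.32 with sgPpia#3.2). The third was 1700012D01Rik, an uncharacterized gene (0.28, -0.33 and -0.52). Against sgBgal the smallest p-values were those of the small nucleolar RNA Snora31 (-0.60 and 0.67 with sgPpia#4.1 and sgBgal), the uncharacterized 0610040B10Rik (0.15 and 1.30) and the microRNA gene Mir3113 (0.88 and -0.65).

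The study had sorted genes into 6 modules by the response of the same 3 lines and of Type V lines to p53 restoration, in samples without these guides that were not analysed here. Module 1 had 202 of 229 genes tested rising and none falling, with a median log2 fold change of 1.71 with sgPpia#4.1, 1.84 with sgBgal and 1.78 with sgPpia#3.2. Module 5 had 70 of 98 rising and none falling, at 1.34, 1.51 and 1.22, and Module 6 had 53 of 67 rising, at 1.32, 1.38 and 1.26. In Modules 2, 3 and 4 no gene rose, and 19 of 56, 140 of 226 and 38 of 71 fell. Without 4711-18 the count in Module 2 was 12. Of the genes tested, 21 in Module 1, 4 in Module 5 and 5 in Module 6 passed the filter on the Restored samples alone, and 3 in Module 3 and 1 in Module 4 on the Control samples alone, so that these had to differ and the counts and medians above include them.

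**Figure D5:**
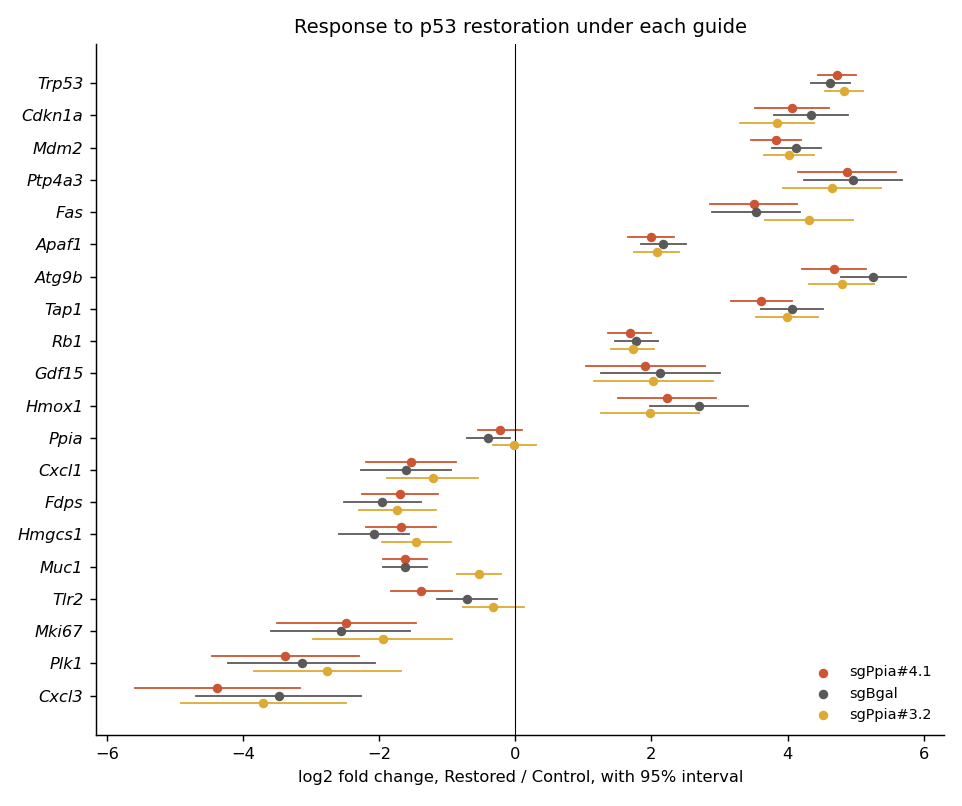
Log2 fold change of Restored over Control with its 95% interval for 20 genes under sgPpia#4.1 (red), sgBgal (grey) and sgPpia#3.2 (yellow), from the fit of all 18 samples. The sgPpia#4.1 interval overlaps those of both other guides in all genes but Muc1 and Tlr2, where it lies below that of sgPpia#3.2 (Muc1 at -1.62, -1.62 and -0.54, and Tlr2 at -1.38, -0.71 and -0.32).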

How the data were processed

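RNA from 18 cultures (3 lines, 3 guides, 2 states) was isolated with an RNeasy kit and sequenced from NEBNext Ultra II libraries. The authors deposited 1 table of TPM values, with the same sum in each sample over 25239 genes. Mitochondrially encoded genes were not analysed here. The submitters' processing notes name bcl2fastq 2.17, HISAT2 and the builds mm10 and GRCm39, and the methods name Kallisto 0.46.2 or HISAT2 2.2.1. Which of them made the table, and the annotation, are not given in the sources used here, nor is how reads of near-identical or overlapping genes were shared.

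Groups follow the GEO labels. Values were analysed as log2(TPM + 1) with limma 3.58.1 in R 4.3.3, with all 18 samples, 6 condition means and cell line as a block, so that fold changes are on that scale and understate those of low genes. A gene was called where its p, adjusted by Benjamini-Hochberg, was below 0.05 and its log2 fold change was 1 or more in size, and the differences between guides by interaction contrasts. The block is used because each replicate number is 1 cell line: Control and Restored samples of a line deviated from the group means together, with correlations of 0.75, 0.72 and 0.73. Each line was sampled once per condition, so cultures of 1 line were not replicated. The p-values rest on the scatter left after condition and line means, pooled over all 18 samples (10 residual degrees of freedom). The 6 samples alone leave 2. The same lines recur under each guide in this pooled scatter. Genes and lists were chosen, and the modules taken up, with earlier results of these data known. Named were about 6 members per list by call and size, the 10 largest rises and falls, the 5 most abundant calls in each direction, the genes that departed most in 1 line, the smallest p-values between guides and called genes with a promoter site. Further members were named after their values were seen. The code was tested on simulated data. Alternatives were another pseudocount, filter, scaling or variance model, no block, only the 6 samples, and each line left out.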

Additional observations from a re-analysis of the deposited data

Results flagged for a closer look

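In 4 low or short genes every line moved one way with sgPpia#4.1 and the opposite way with another guide. The log2 response with sgPpia#4.1 minus that with the other guide was -1.27 against sgBgal and -0.87 against sgPpia#3.2 for Snora31. It was 1.53 against sgBgal for Mir3113, and 0.61 against sgBgal and 0.80 against sgPpia#3.2 for 1700012D01Rik. For Uchl1 it was 0.38 against sgPpia#3.2. None of these differences passed limma's interaction test after adjustment over 11855 genes, the opposite directions themselves were not tested, and the genes other than Uchl1 had been picked for small interaction p-values.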

How the results depend on the processing

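Under the alternatives no gene was called in the opposite direction to that reported. Without the replicate block 782 genes were called, 554 up and 228 down, all among those called with it. Restricting the fit to the 6 samples gave 1122 calls, a pseudocount of 0.1 gave 1417, rescaling 1087, no filter on TPM 1129, a minimum of 5 TPM 933 and a trended, robust variance 1137. With 1 line left out, the calls ranged from 928 to 1492. The genes called within the lists numbered 94 to 126 against 117. Without the block 10 sterol genes fell and 6 secreted factors rose, and at a pseudocount of 0.1 8 interferon genes rose. Of 92 called genes named in the text, 67 were called under every alternative, and of the 25 others 15 were lost without the block and 19 when a line was left out. The differences between guides stayed at 0 genes under all alternatives run for them, including a replicate block for each line and state together, which was added after the data were seen and gave 93 and 173 genes at an unadjusted p under 0.05 (14 and 19 without any block). Values that changed sign, all of genes not called in the report, were those of Casp8 (-0.12), Cop1 (-0.086), Gpx4 (-0.15), Map1lc3b (-0.095) and Tfeb (-0.067) after rescaling, and, over the fits without 1 line, Bcl2 (-0.37 to 0.20), Gadd45a (-0.56 to 0.66), Rrm2 (-0.51 to 0.43), Tfeb (-0.14 to 0.23), AA465934 (-1.55 to 0.72), Chac1 (-0.50 to 1.67), Ripk3 (-0.32 to 0.14), Syp (-0.24 to 0.29) and Tekt4 (-0.062 to 1.75). A sign change within 1 SE of the reported value was not counted. The cause of these changes was not tested. With 3 lines, TPM without read totals and no 4-OHT control lacking the restorable allele, precision is set by the scatter left after line and condition means.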

Other observations

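Genes of the integrated stress response, which is induced when amino acids run short or proteins misfold and acts through the transcription factor Atf4, differed by culture. A list of 22 such genes was drawn up after their values had been seen, so it has no test. In sgPpia#4.1 line 4711-1, 20 of 22 were lower after restoration and the median log2 difference was -1.52, whereas the medians were 0.84 in 4711-18 and 0.24 in 4716-11. The same kind of fall appeared with sgPpia#3.2 in another line, 4711-18, where 19 of 22 were lower and the median was -1.56, against 0.39 in 4711-1 and 0.13 in 4716-11. With sgBgal the 3 medians were 0.16, 1.03 and 0.16.

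Asns, the asparagine synthetase, was at 285 TPM in Control and 60.2 TPM in Restored cells of 4711-1 with sgPpia#4.1, at 151 TPM in Control and 139.8 TPM in Restored cells with sgBgal and at 111 TPM in Control and 109 TPM in Restored cells with sgPpia#3.2. In 4711-18 it was at 633 TPM in Control and 147 TPM in Restored cells with sgPpia#3.2 and at 179 TPM in Control and 356 TPM in Restored cells with sgBgal. Chac1 in 4711-1 was at 124 TPM in Control and 21.0 TPM in Restored cells with sgPpia#4.1 and at 90.2 TPM in Control and 82.9 TPM in Restored cells with sgBgal. For Asns the Control cultures of both pairs lay above, and the Restored cultures below, those of the same line with sgBgal. In Control cells this held for 17 of the 22 genes in 4711-1 with sgPpia#4.1 and for 20 in 4711-18 with sgPpia#3.2, and in Restored cells for 21 and 22. In Restored cells it also held for 21 in 4711-18 with sgPpia#4.1 and for 20 in 4711-1 with sgPpia#3.2, where the Control counts were 9 and 0. In 4716-11 the Restored counts were 8 with sgPpia#4.1 and 10 with sgPpia#3.2, and the Control counts 8 and 11. Atf3 went the other way in Control cells, at 31.4 TPM in Control and 6.05 TPM in Restored cells of 4711-1 with sgPpia#4.1 and at 768 TPM in Control and 285 TPM in Restored cells with sgBgal. Of the 22 genes 2 rose and 2 fell over the 3 lines, where 6.56% and 3.05% of all genes did. With 1 line left out, 5 rose and 2 fell without 4711-1, 2 rose and 5 fell without 4711-18, and 0 rose and 2 fell without 4716-11.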
